A study of Homo sapiens with 6 samples.

Results

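The genes described here are 32 genes of sterol synthesis, uptake, storage and efflux, out of 21462 gene symbols in the count table. They were chosen on the rise of ABCA1 and LIPA in the same contrast that is described below, together with named genes of the pathway around them, so the values of these 32 genes in that contrast are given as a description and carry no test. RNA sequencing counts came from A431 cells, a human keratinocyte line from an epidermoid carcinoma. Libraries were made from 3 A431CT samples, with a wild-type DSG2 genotype, and 3 Dsg2KO samples, in which DSG2 was knocked out by CRISPR/Cas9. DSG2 encodes desmoglein 2, a desmosomal cadherin. Both lines grew in DMEM with 10% FBS, and the labels name no treatment for either group. Each group is 1 line, received from another laboratory, so loss of DSG2 and any other difference between the lines cannot be told apart. Whether the knockout line is 1 clone is not given in the sources used here. The study calls the samples biological replicates, the labels only number them, and the p-values printed below measure the spread between these samples.

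Library totals ran from 12845719 to 16255692 counts, and 12857 genes had enough counts to be tested. DSG2 mRNA itself was at 323 ± 6.08 CPM (SD, n = 3, on the counts-per-million scale after normalization of library sizes) in A431CT and 51.9 ± 2.88 CPM (n = 3) in Dsg2KO, which is 16.1% of the A431CT level. The keratinocyte markers KRT5 (8191 to 9596 counts per library) and TP63 (2675 to 3529 counts) were present in every library, whereas the basal keratin KRT14 and the desmosomal plaque gene PKP1 had at most 2 counts in any. KRT6A, a keratin of stressed keratinocytes, was called lower in Dsg2KO. Among 6 markers of other skin cell types, CD3E, COL1A2 and MLANA had 0 counts in every library, PTPRC had 2 to 8, the melanocyte marker TYRP1 had 2, 3 and 3 in A431CT and 0 in each Dsg2KO library, and the endothelial marker PECAM1 had 43 to 98 and was called higher. The part of these markers in the results below was not tested. In bulk RNA, fewer cells of a type and less RNA per cell cannot be told apart.

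Cells obtain cholesterol by making it from acetyl-CoA or by taking up lipoproteins, whose cholesteryl esters are cleaved in lysosomes. When sterols in the endoplasmic reticulum are low, SCAP carries the SREBP factors to the Golgi, where they are cut into active transcription factors for the synthesis and uptake genes, whereas high sterols hold SCAP back on INSIG proteins. Sterol derivatives also activate the liver X receptors, which drive efflux genes such as ABCA1 and ABCG1, and keratinocytes use these routes to supply the lipids of the skin barrier.

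The promoters of the 5 genes around which the account turns are shown with the motifs that textbook accounts assign to these regulators. They are ABCA1, LIPA and STARD4, which passed both thresholds, and INSIG1 and SREBF2 of the sensing machinery. Each window holds 250 bases before and 50 bases after the RefSeq start site (GRCh38.p14), printed in the direction of transcription. Capitals mark CACCCCAC (a sterol response element core), CACGTG (an E-box), CCAAT and its complement ATTGG (the NF-Y box), and a repeat of AGGTCA with 4 bases between the copies and at most 1 mismatch in each copy (DR4, the liver X receptor arrangement), searched on both strands. The windows are chr9:104928106-104928405 (minus strand) for ABCA1, chr10:89251726-89252025 (minus) for LIPA, chr5:111512486-111512785 (minus) for STARD4, chr7:155297628-155297927 (plus) for INSIG1 and chr22:41832855-41833154 (plus) for SREBF2.
ABCA1: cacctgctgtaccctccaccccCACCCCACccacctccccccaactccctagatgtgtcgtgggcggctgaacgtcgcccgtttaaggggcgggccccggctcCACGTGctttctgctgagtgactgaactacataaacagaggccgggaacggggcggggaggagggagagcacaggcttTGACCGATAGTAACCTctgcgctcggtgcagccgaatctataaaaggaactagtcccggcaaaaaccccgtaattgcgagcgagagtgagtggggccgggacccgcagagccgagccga
LIPA: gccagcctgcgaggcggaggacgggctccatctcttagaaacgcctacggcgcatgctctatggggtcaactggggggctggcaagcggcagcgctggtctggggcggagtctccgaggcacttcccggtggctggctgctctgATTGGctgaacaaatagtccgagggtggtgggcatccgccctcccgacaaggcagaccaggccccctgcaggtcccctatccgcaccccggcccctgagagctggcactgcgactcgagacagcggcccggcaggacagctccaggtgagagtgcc
STARD4: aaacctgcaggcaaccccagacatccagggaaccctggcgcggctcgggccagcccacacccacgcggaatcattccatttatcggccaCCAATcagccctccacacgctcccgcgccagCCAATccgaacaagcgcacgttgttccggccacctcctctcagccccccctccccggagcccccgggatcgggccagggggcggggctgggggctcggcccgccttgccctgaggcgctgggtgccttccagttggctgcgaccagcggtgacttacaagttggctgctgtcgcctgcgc
INSIG1: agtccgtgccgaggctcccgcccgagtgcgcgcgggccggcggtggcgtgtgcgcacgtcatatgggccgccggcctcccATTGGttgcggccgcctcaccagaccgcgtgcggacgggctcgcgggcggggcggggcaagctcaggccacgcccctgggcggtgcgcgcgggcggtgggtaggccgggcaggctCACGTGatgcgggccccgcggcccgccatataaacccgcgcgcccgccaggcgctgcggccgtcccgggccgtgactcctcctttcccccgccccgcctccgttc
SREBF2: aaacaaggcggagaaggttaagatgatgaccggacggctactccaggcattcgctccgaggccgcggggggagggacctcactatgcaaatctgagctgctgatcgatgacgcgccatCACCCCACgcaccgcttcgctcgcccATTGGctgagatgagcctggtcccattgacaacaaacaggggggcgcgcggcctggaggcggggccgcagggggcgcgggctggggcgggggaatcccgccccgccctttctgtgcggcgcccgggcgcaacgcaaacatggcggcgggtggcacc

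Of the 27 genes with a promoter window, only ABCA1 had a DR4 match (bases -69 to -54 from the start site, minus strand). Its window also held a sterol response element core at -228 to -221 and an E-box at -147 to -142. The LIPA window held 1 CCAAT box, at -106 to -102 on the minus strand. STARD4 had a pair of CCAAT boxes, at -161 to -157 and -130 to -126. In INSIG1 a CCAAT box lay at -170 to -166 on the minus strand and an E-box at -55 to -50, and in SREBF2 a sterol response element core at -132 to -125 preceded a CCAAT box at -106 to -102 on the minus strand. None of these matches overlapped another. Promoter windows were found for 27 of the 32 genes, all but ABCG1, ACAT2, FDFT1, SQLE and FASN. Some genes had more than 1 window (LIPA had 3), and a motif was counted for a gene if any of its windows held it. CCAAT was found for 21 of the 27 genes, against 39.7% of 27305 genes with a window of the same length, whether or not they were tested here. CACCCCAC was in 2 of 27 (ABCA1 and SREBF2) against 3.39%, CACGTG in 5 of 27 against 8.77%, and DR4 in 1 of 27 against 1.71%. A match is a run of letters and says nothing about whether a factor binds there. CACCCCAC, CACGTG and CCAAT were searched as exact letters, so a missing match does not show that a site is absent.

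Of the 32 genes, 31 were tested and ABCG1 was under the count filter. A gene was called where its adjusted p was under 0.05 and its fitted log2 fold change, Dsg2KO over A431CT, was at least 0.5 in size. By that rule 2 of the 31 were called higher in Dsg2KO, ABCA1 and LIPA, and 1 was called lower, STARD4, whereas across all 12857 genes 2.99% were called higher and 3.03% lower. By adjusted p alone 6 were higher (ABCA1, LIPA, SOAT1, HMGCS1, MVD and LSS) and 9 lower (STARD4, SREBF1, SREBF2, INSIG1, MVK, FDPS, FDFT1, FASN and SCD), with 14.3% of all tested genes higher and 15.3% lower. The 3 Dsg2KO libraries lay above all A431CT libraries for 8 genes and below them for 8, and this was so for 21.2% and 21.4% of all tested genes. The median log2 fold change of the 31 was -0.035, beside -0.0048 over all tested genes, and it was above 0 (0.018) only without A431CT replicate 1. The genes nearest the fold threshold were LIPA, just inside at 0.53, and INSIG1 at -0.49 and LSS at 0.46, both just outside.

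**Figure D1:**
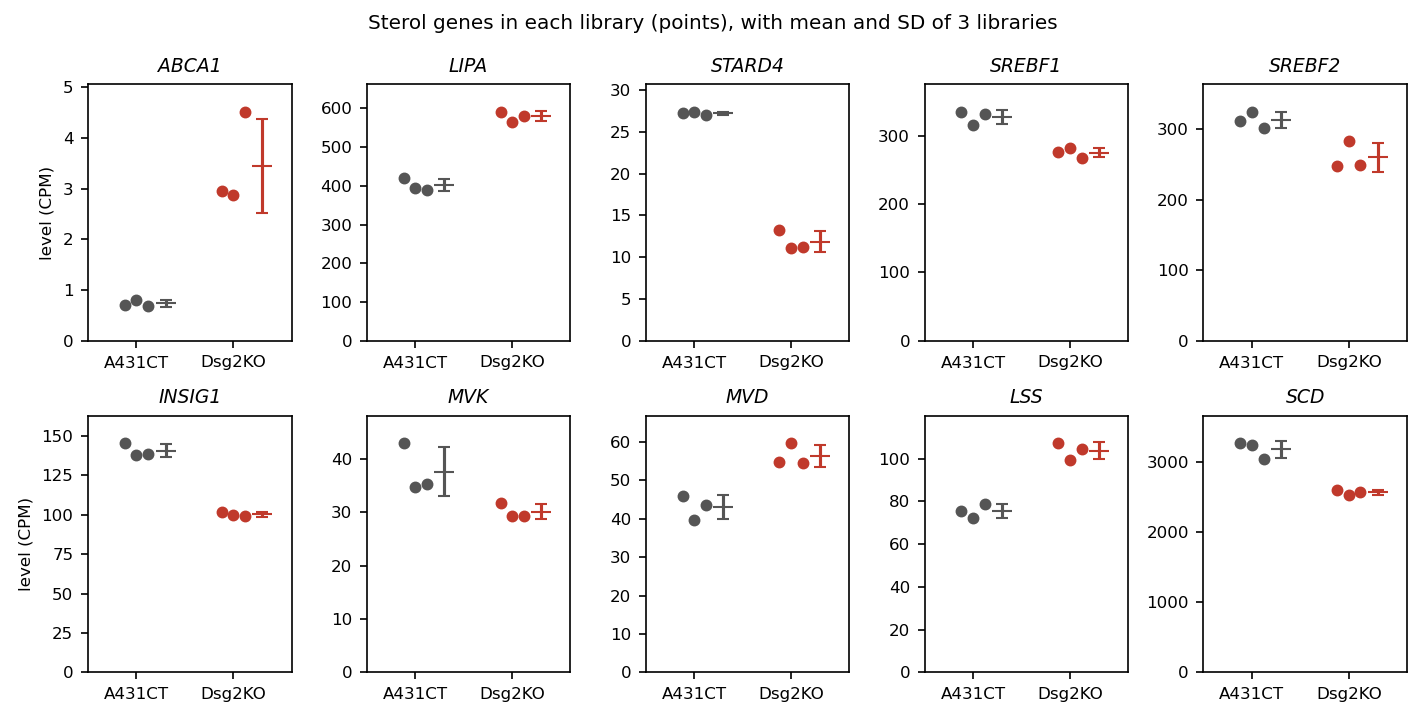
Level of 10 sterol genes in CPM (vertical axis from 0, a scale for each gene) in the 3 A431CT and 3 Dsg2KO libraries, 1 point per library, with bars for the mean and SD. The 10 are the genes called, or with groups that do not overlap and a log2 fold change of at least 0.25 in size. For the genes not called, the separation of the groups thus follows from this choice. ABCA1, LIPA, MVD and LSS sit higher in Dsg2KO while STARD4, SREBF1, SREBF2, INSIG1, MVK and SCD sit lower.

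ABCA1, the plasma membrane transporter that hands cholesterol to apolipoprotein acceptors, was the most raised of the 32 genes in fold but was a rare transcript. Its counts were 9, 11 and 9 in the A431CT libraries and 44, 47 and 73 in the Dsg2KO libraries, which is 0.708, 0.811 and 0.698 CPM against 2.95, 2.88 and 4.51 CPM. The lowest Dsg2KO library stood well above the highest A431CT library, and replicate 3 was the highest of the Dsg2KO libraries. The means were 0.739 ± 0.0627 CPM and 3.45 ± 0.924 CPM (SD, n = 3 each), a ratio of 4.67, and the fitted log2 fold change was 2.21 (SE 0.32). Leaving out each library in turn gave 1.96 to 2.33. ABCA1 lies at chr9:104781006-104928155 (GRCh38, minus strand). ABCG1, the transporter that passes cholesterol to lipoprotein particles, had 0, 1 and 1 counts in A431CT and 3, 3 and 2 in Dsg2KO. Both groups were at or under the floor of 3 counts, so no fold is given and a difference was not detectable at this depth. MYLIP, a ubiquitin ligase that marks lipoprotein receptors for degradation, had overlapping groups (27.3 ± 2.37 and 29.3 ± 2.65 CPM, n = 3 each) and a log2 fold change of 0.10.

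LIPA encodes lysosomal acid lipase, which frees cholesterol from the esters of lipoproteins taken up by the cell. It was an abundant transcript, at 419, 395 and 390 CPM in A431CT and 591, 566 and 582 CPM in Dsg2KO. The groups were far apart beside their own spread, with means of 402 ± 15.5 and 579.5 ± 12.6 CPM (n = 3 each), a ratio of 1.44 and a log2 fold change of 0.53 (SE 0.04, 0.51 to 0.56 with a library left out). LIPA is annotated at chr10:89213569-89414557 (GRCh38, minus strand). Its main transcript starts at 89251775, and only longer annotated transcripts reach across IFIT2 (89283694 to 89309271), IFIT3 (89327307 to 89377473) and IFIT1 (89392546 to 89406487), interferon-induced genes on the opposite strand. These were called higher in Dsg2KO by edgeR's quasi-likelihood test with Benjamini-Hochberg adjustment, IFIT2 by 0.69 (adjusted p = 1.63e-07), IFIT3 by 0.76 (adjusted p = 9.34e-09) and IFIT1 by 1.05 (adjusted p = 6.59e-08) on the log2 scale. Their levels went from 64.2 ± 3.44 to 103 ± 0.915 CPM for IFIT2, from 236 ± 7.97 to 400 ± 15.1 CPM for IFIT3 and from 52.0 ± 3.47 to 108 ± 9.99 CPM for IFIT1 (n = 3 each). Whether the counting used strand is not given in the sources used here, and the part of IFIT reads in the LIPA counts was not tested.

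STARD4 encodes a soluble carrier that moves sterols between membranes inside the cell. Its level was 27.2, 27.4 and 27.0 CPM in A431CT and 13.3, 11.1 and 11.2 CPM in Dsg2KO. The A431CT libraries were nearly alike and every Dsg2KO library was far below them. Means of 27.2 ± 0.189 and 11.9 ± 1.23 CPM (n = 3 each) gave a ratio of 0.437 and a log2 fold change of -1.20 (SE 0.09, -1.28 to -1.15 with a library left out), the lowest of the 31. STARD4 lies at chr5:111496033-111512590 (minus strand). The lysosomal cholesterol exporters NPC1 and NPC2 had overlapping groups, with log2 fold changes of 0.11 and 0.09. SOAT1, which esterifies cholesterol for storage, had 62.7 ± 3.59 CPM in A431CT and 73.8 ± 2.26 CPM in Dsg2KO (n = 3 each), groups that did not overlap, and a log2 fold change of 0.23. Within the lysosome and storage group, LIPA and STARD4 were thus called in opposite directions, and the summed level of its 5 genes was 731 ± 18.4 CPM in A431CT and 921 ± 10.9 CPM in Dsg2KO, most of it LIPA.

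The sensing machinery had lower values for 3 of its 4 genes, and none of the 4 passed the fold threshold. INSIG1, the retention protein that holds SCAP in the endoplasmic reticulum, was at 145, 138 and 139 CPM in A431CT and 102, 99.9 and 99.0 CPM in Dsg2KO. Every Dsg2KO library was below every A431CT library, with means of 141 ± 3.93 and 100.2 ± 1.47 CPM (n = 3 each), a ratio of 0.713 and a log2 fold change of -0.49 (SE 0.04). It passed both thresholds only when A431CT replicate 2 was left out, at -0.50, which makes 2 genes called lower instead of 1. INSIG1 lies at chr7:155297776-155310235 (plus strand). SREBF1, which encodes the factor tied mainly to fatty acid genes, was at 334, 316 and 332 CPM in A431CT and 275, 282 and 268 CPM in Dsg2KO, a log2 fold change of -0.25 (SE 0.04). SREBF2, whose product drives mainly the sterol genes, had 311, 324 and 302 CPM against 248, 283 and 249 CPM and a log2 fold change of -0.27 (SE 0.05). For both factors the groups were separate but the gap was narrow beside the fold threshold. SCAP, the escort protein, went the other way, at 56.9, 52.9 and 60.3 CPM in A431CT and 64.6, 60.9 and 64.1 CPM in Dsg2KO, a log2 fold change of 0.16 (SE 0.06) that did not pass the adjusted p. The summed level of the 4 genes was 837 ± 9.24 CPM in A431CT and 698 ± 24.4 CPM in Dsg2KO (n = 3 each), a ratio of 0.834.

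The 18 synthesis enzymes, 7 from acetyl-CoA to farnesyl diphosphate and 11 from there to cholesterol, were all tested and none was called by edgeR or DESeq2, with 3 higher (HMGCS1, MVD and LSS) and 3 lower (MVK, FDPS and FDFT1) by adjusted p alone. Their summed level was 1633, 1496 and 1535 CPM in the A431CT libraries and 1582, 1594 and 1579 CPM in the Dsg2KO libraries, groups that overlapped, with means of 1555 ± 70.5 and 1585 ± 7.91 CPM and a ratio of 1.02. Per kilobase of the main transcript, the A431CT level ran from 5.57 ± 0.411 CPM per kb for SC5D, a late desaturase, to 145 ± 8.64 CPM per kb for EBP, the sterol isomerase, and in Dsg2KO from 5.41 ± 0.491 to 141.4 ± 0.575 CPM per kb for the same pair. FDFT1, squalene synthase, followed at 89.4 ± 8.06 CPM per kb in A431CT, and then SQLE, squalene epoxidase, at 59.9 ± 1.91 CPM per kb and FDPS, farnesyl diphosphate synthase, at 58.0 ± 1.10 CPM per kb, and the last 2 of these did not differ beyond their spread.

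**Figure D2:**
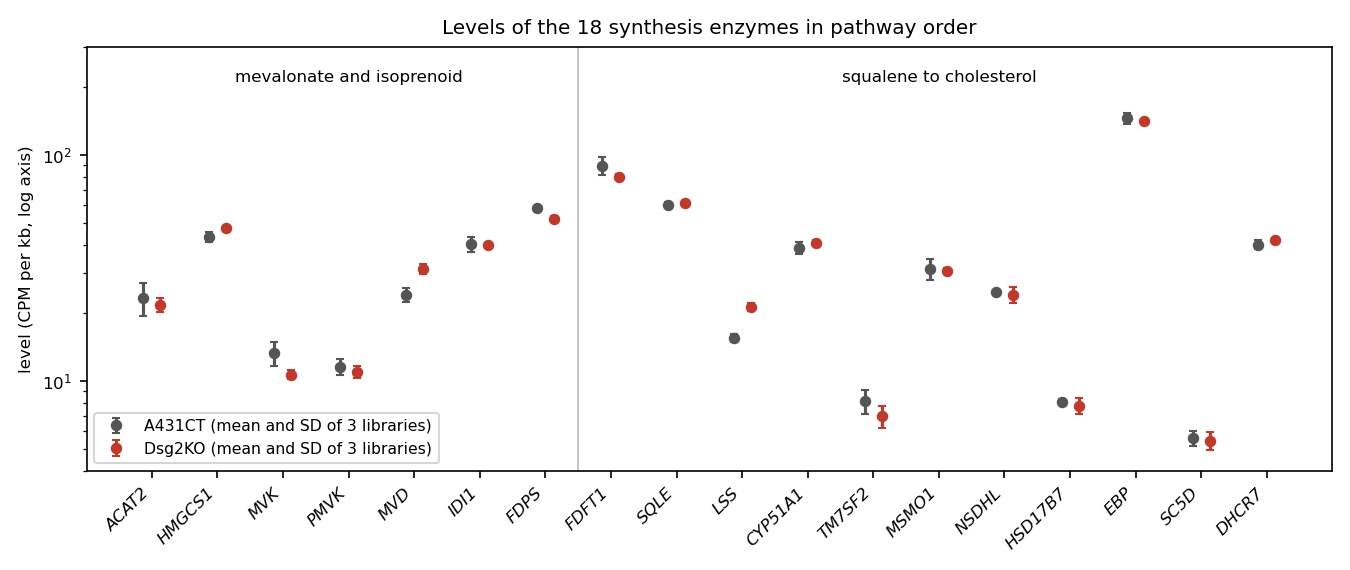
Level of the 18 synthesis enzymes in CPM per kilobase of the main transcript (log axis), in pathway order from ACAT2 to DHCR7, with points for the mean and bars for the SD of 3 libraries, A431CT in grey and Dsg2KO in red. EBP is the highest (145 in A431CT) and SC5D the lowest (5.57), and the pairs lie furthest apart for MVD and LSS, which are higher in Dsg2KO.

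In the mevalonate arm, MVD, the decarboxylase that forms isopentenyl diphosphate, was at 46.0, 39.7 and 43.6 CPM in A431CT and 54.9, 59.6 and 54.5 CPM in Dsg2KO. All Dsg2KO libraries were the higher ones, and the log2 fold change was 0.39 (SE 0.07, 0.33 to 0.44 with a library left out). MVK, mevalonate kinase, had 42.9, 34.7 and 35.3 CPM against 31.7, 29.3 and 29.4 CPM, and a log2 fold change of -0.32 (SE 0.08). A431CT replicate 1 was the high library for MVK, and without it the log2 fold change was -0.22 and MVK no longer passed the adjusted p. The annotated MVK gene shares 326 bases with MMAB on the opposite strand, which had a log2 fold change of -0.28. These bases (109573255 to 109573580) lie ahead of the start of the main MVK transcript at 109573794. HMGCS1, which makes the precursor of mevalonate, had a log2 fold change of 0.14 and FDPS of -0.16, both with separate groups. ACAT2, PMVK and IDI1 had overlapping groups, with log2 fold changes from -0.10 to -0.01. ACAT2 overlaps TCP1 on the opposite strand by 615 bases, and TCP1 had a log2 fold change of -0.31.

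In the sterol arm, LSS, lanosterol synthase, which forms the sterol ring system, was at 75.3, 72.3 and 78.6 CPM in A431CT and 107, 99.3 and 105 CPM in Dsg2KO. The groups were well separated, at 75.4 ± 3.14 and 104 ± 4.00 CPM (n = 3 each), and the log2 fold change of 0.46 (SE 0.05) stayed under the threshold. DHCR7, the last reductase, also had all Dsg2KO libraries above A431CT, by 0.06 on the log2 scale. The other 9 enzymes of this arm had overlapping groups and log2 fold changes from -0.22 for TM7SF2, a sterol reductase, to 0.08 for CYP51A1, the lanosterol demethylase. FDFT1 was among these, with overlapping groups (182 ± 16.4 and 162 ± 5.07 CPM, n = 3 each) although it passed the adjusted p.

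SCD and FASN were the most abundant of the 32 genes in CPM. SCD, the stearoyl-CoA desaturase that makes monounsaturated fatty acids, was at 3262, 3238 and 3038 CPM in A431CT and 2602, 2522 and 2570 CPM in Dsg2KO. Its groups were separate, with a log2 fold change of -0.31 (SE 0.03). FASN, fatty acid synthase, was also separate, at 1564.5 ± 9.86 and 1389.8 ± 7.06 CPM (n = 3 each), and its log2 fold change was -0.17 (SE 0.03). Together they summed to 4744 ± 116 CPM in A431CT and 3954 ± 42.9 CPM in Dsg2KO, a ratio of 0.834.

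**Figure D3:**
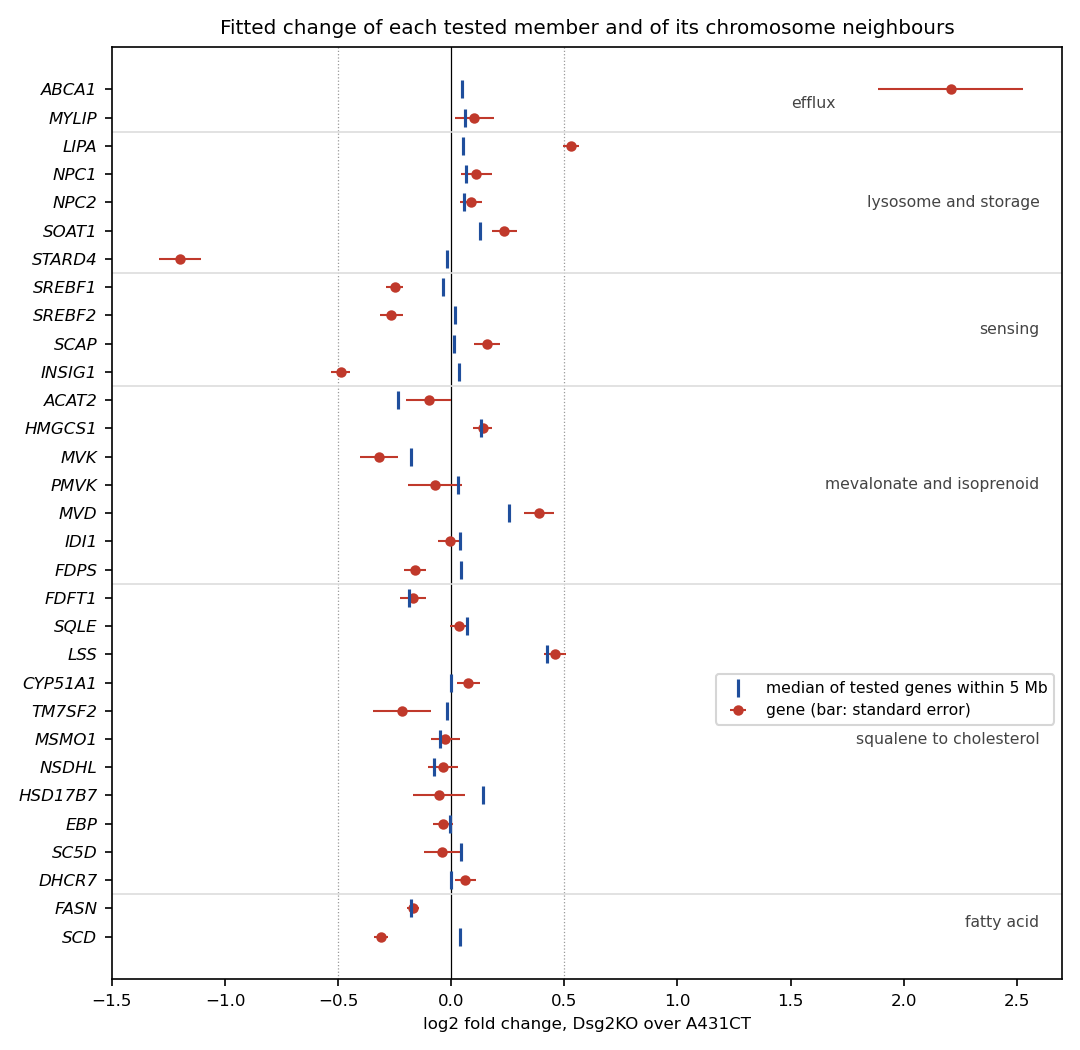
Fitted log2 fold change (horizontal axis, Dsg2KO over A431CT) of the 31 tested genes by role, as red points with standard error bars, beside the median of tested genes within 5 Mb on the same chromosome, as blue marks, and dotted lines at the fold threshold of 0.5. ABCA1 (2.21), LIPA (0.53) and STARD4 (-1.20) lie past the dotted lines and away from their blue marks, and LSS (0.46) lies on its own (0.42).

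Some of the 31 genes lay among neighbours with a like fold change, so each gene was set beside the median log2 fold change of the tested genes whose starts lie within 5 Mb of its own. LSS, on chromosome 21, was 0.03 from the median of its 43 neighbours, which was 0.42. FASN (-0.17 against -0.18), FDFT1 (-0.17 against -0.19) and HMGCS1 (0.14 against 0.13) were as near to their neighbours. MVD was at 0.39 with a neighbour median of 0.25 over 57 genes, and MVK at -0.32 with -0.18 over 71 genes. Other members stood apart from their neighbour medians. The neighbour median was 0.05 for ABCA1 (26 genes), 0.05 for LIPA (44), -0.02 for STARD4 (25), 0.03 for INSIG1 (32), 0.02 for SREBF2 (127), -0.04 for SREBF1 (58) and 0.04 for SCD (91). The differences from those medians were 2.16 for ABCA1, 0.48 for LIPA, -1.18 for STARD4, -0.52 for INSIG1, -0.28 for SREBF2, -0.21 for SREBF1 and -0.35 for SCD. For LIPA the median covered unlike neighbours. The starts of IFIT2, IFIT3 and IFIT1 lay 0.07 to 0.18 Mb from its own, with log2 fold changes of 0.69, 0.76 and 1.05. IFIT5, at 0.20 Mb, had 0.12, and FAS, at -0.26 Mb, had 0.10. DNA copy number was not measured, and the part of the chromosome neighbourhood in each value was not tested.

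**Figure D4:**
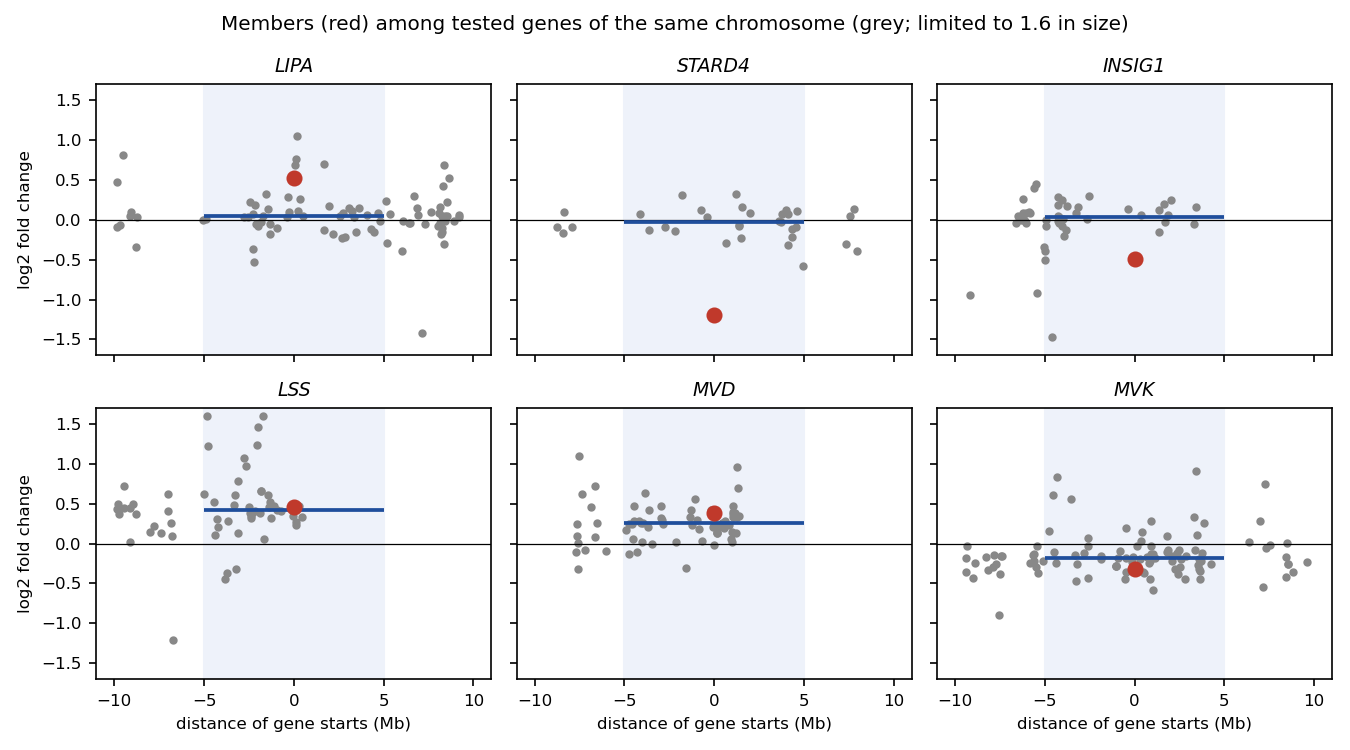
Fitted log2 fold change (vertical axis) of 6 genes, in red, and of tested genes on the same chromosome, in grey, against the distance of their starts in Mb, with a blue line for the median within 5 Mb. LSS lies on its line (0.46 and 0.42), MVD and MVK lie nearer theirs, and STARD4 (-1.20) and INSIG1 (-0.49) lie below lines close to 0.

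A further 83 genes of the surrounding pathways, none of them used to choose the 32, were read from the same fit. Their lists were also chosen with earlier results of these data known, so the values below are no independent test. Of the 83 genes, 73 were tested, and 2 rose and 2 fell by both thresholds. By adjusted p alone 12 were higher and 21 lower, and the median log2 fold change was -0.02. Over all tested genes the shares were 2.99% higher and 3.03% lower by both thresholds, and 14.3% higher and 15.3% lower by adjusted p alone. The 4 calls were from edgeR's quasi-likelihood test with Benjamini-Hochberg adjustment over all 12857 genes. NCOR1, a corepressor of nuclear receptors including the liver X receptors, fell from 73.6 ± 0.391 to 42.2 ± 1.23 CPM (n = 3 each, log2 fold change -0.80, SE 0.05, adjusted p = 6.32e-08), where its neighbours had a median of -0.03. SCARB1, a receptor for high-density lipoprotein, fell from 185 ± 8.36 to 121 ± 9.38 CPM (log2 fold change -0.61, adjusted p = 1.16e-06) with a neighbour median of -0.23. UBE2G2, a ubiquitin-conjugating enzyme of endoplasmic reticulum degradation, rose from 108 ± 2.49 to 165.95 ± 2.40 CPM (log2 fold change 0.61, adjusted p = 6.59e-08). It lies on chromosome 21 like LSS, with a neighbour median of 0.44. GRAMD1A, which carries cholesterol from the plasma membrane to the endoplasmic reticulum, rose from 4.97 ± 0.490 to 8.23 ± 0.559 CPM (log2 fold change 0.73, adjusted p = 0.00315).

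By list, the liver X receptors and their partners had 7 genes tested, all 7 with a fitted value below 0, as had 6545 of all 12857 tested genes, and the values nearest 0 were -0.0025 for NR1H3 and -0.017 for RXRB. NCOR1 was past the adjusted p, as was, named after its value was seen, the partner receptor RXRA (-0.34). SREBP processing and sterol-regulated degradation had 10 tested, with UBE2G2 called and 3 higher and 1 lower by adjusted p alone. Sterol transport and storage had 14 tested, with GRAMD1A and SCARB1 called, and 3 higher and 4 lower by adjusted p alone. In the other 3 lists no gene passed both thresholds by edgeR or DESeq2. Fatty acid synthesis, desaturation and activation (13 tested) had 3 higher and 3 lower by adjusted p alone, lysosomal enzymes, membrane proteins and TFEB factors (18 tested) had 3 higher and 5 lower, and isoprenoid use (11 tested) had 5 lower and none higher. These counts stand beside 14.3% higher and 15.3% lower over all tested genes, and the difference of a list from all genes was not tested. The 5 lower genes of isoprenoid use had fitted values from -0.41 to -0.22. Their neighbour medians ran from -0.37 to -0.19, and the part of the neighbourhood was not tested. The lysosomal list, which does not hold LIPA, had fitted log2 fold changes from -0.47 to 0.34, their median at 0.00083. FADS1, a fatty acid desaturase named after its value was seen, had -0.49 (adjusted p = 9.38e-06) and passed both thresholds when Dsg2KO replicate 2 was left out.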

How the data were processed

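RNA was sequenced paired-end from 3 A431CT and 3 Dsg2KO samples, and the authors mapped and counted reads per gene on GRCh38 (hg38) with CLC Genomics Workbench 23. The deposited values are counts per gene symbol, not normalized. The gene annotation and strand setting of the counting are not given in the sources used here. Genes were kept by edgeR's filterByExpr (minimum count 10, minimum total 15), scaled by TMM (factors 0.9904 to 1.009) and tested with edgeR's quasi-likelihood test on the 6 libraries, with Benjamini-Hochberg adjustment over 12857 genes. Calls used the thresholds of the study, a log2 fold change of at least 0.5 in size with an adjusted p under 0.05. The code was tested on simulated data. CPM values are TMM-scaled, and a floor of 3 counts is 0.184 to 0.236 CPM, covering counting error only. Of the symbols in the table, 19476 were placed on GENCODE 44, which gave positions, neighbours, overlaps and canonical transcript lengths. Promoter windows are from RefSeq. The 32 genes and all lists were chosen with earlier results of these data known. All 32 are described by role, with the value in every library where a gene was called or where its groups did not overlap and its log2 fold change reached 0.25 in size, plus SCAP. Of each surrounding list the called genes are named, and other names are marked where they occur. Some genes of the lists are not reported here. Alternatives were other filters, scalings, tests and fold minimums, a replicate block, each library left out, and other neighbour windows. Tools were R 4.3.3, edgeR 4.0.16, limma 3.58.1, DESeq2 1.42.0 and Python 3.11.15.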

Additional observations from a re-analysis of the deposited data

How the results depend on the processing

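ABCA1, LIPA and STARD4 were called with no low-count filter, RLE size factors, total counts only, DESeq2, edgeR's likelihood ratio test, a replicate block and each library left out, with 682 to 916 of all genes called. Of the values recomputed, only the median over the 31 genes changed direction. It ran from -0.048 to 0.018 over the left-out libraries and was above 0 only without A431CT replicate 1. With at least 10 counts required in every library, 1 of the 32 was called higher, since ABCA1 (9 counts) was no longer tested. With no fold minimum, 6 of the 32 were higher and 9 lower, 33 of the 83 surrounding genes were called and 3802 genes in all. With a fold minimum of 1 in log2, 1 of the 32 was higher (ABCA1) and 1 lower (STARD4), 250 genes were called in all, and the edgeR count for the 83 was 0, since none of the 73 tested had a fitted change of that size. Leaving out each library gave 686 to 795 genes called in all, 2 to 2 of the 32 higher, 1 to 2 lower (2 without A431CT replicate 2, when INSIG1 was at -0.50) and 4 to 5 of the 83. Within 2 Mb instead of 5, the difference from the neighbour median was 0.42 for LIPA and -0.55 for INSIG1, and the cause was not tested. Residuals of same-numbered samples had correlations of -0.0027, 0.0135 and 0.0539, which does not settle whether those samples were prepared together. The replicate block gave 769 genes called, 747 of them among the 775, with 2 of the 32 higher and 1 lower. At this depth a gene such as ABCG1, with at most 3 counts in a library, could not be compared.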

Other observations

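FNTB, which encodes a subunit of protein farnesyltransferase, had 0 counts in each of the 3 A431CT libraries and 19, 13 and 9 counts in the Dsg2KO libraries, and was under the low-count filter. It was called higher with no filter and when any A431CT library or Dsg2KO replicate 3 was left out. FNTB is covered by the annotated readthrough gene CHURC1-FNTB, so its counts are uncertain. It was named after its values were seen.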
